A study of Mus musculus with 4 samples.

Results

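Mitochondrial ribosomal protein genes were followed in LSK cells, the bone marrow fraction without lineage markers and with Sca-1 and c-Kit on the surface, which holds blood stem cells and multipotent progenitors. The members were all genes whose platform symbol starts with Mrpl or Mrps and a digit, without pseudogenes, read from the probe set of 1 gene with the highest mean. The rule found 71 of 22180 genes, of which 43 are Mrpl genes, named for the large subunit, and 28 are Mrps genes, named for the small subunit. A further 7 protein-coding genes of these names (Mrpl30, Mrpl33, Mrpl41, Mrpl43, Mrpl44, Mrpl53 and Mrps6) had no probe set of their own.

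The mitochondrial ribosome translates the few messages of the mitochondrial genome, which encode core subunits of the respiratory chain and the ATP synthase. Its RNAs are made inside the mitochondrion, while its proteins are encoded in the nucleus, made in the cytosol and imported. Part of these proteins descend from bacterial ribosomal proteins, and others are found in mitochondrial ribosomes alone. Resting blood stem cells are known for a low reliance on mitochondrial respiration, which increases when they divide and differentiate.

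The cells came from male C57/B6 mice aged 4 months, of genotypes labelled Ctrl and AMKO. The labels do not spell out AMKO, so it is kept as a label and no targeted gene was checked. Each genotype was sampled at day 0, called basal, and on day 8 of treatment with 5-fluorouracil (5FU, 150 mg/kg), a drug that blocks thymidylate synthesis and is toxic to cycling cells. There was 1 array in each of the 4 groups, the number of mice behind an array is not given, and no value below carries a replicate error. In the bulk RNA of a sort, a change in the mix of cells and a change in RNA per cell cannot be told apart.

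Values are log2 probe-set signals, and a signal does not rank 1 gene against another. A gene was kept when its highest array reached 5.475, the median of all values, which left 14061 genes and 70 of the 71 members, each of the 70 above this floor on all 4 arrays. The exception was Mrps36, with 4.77 in Ctrl basal, 3.81 in AMKO basal, 4.00 in Ctrl 5FU and 4.04 in AMKO 5FU. Mrps36 carries a ribosomal name but is better known as an adaptor of the 2-oxoglutarate dehydrogenase complex. All 4 of its values lay under the floor, so its differences are not read.

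The sort marker Kit was high on every array, at 11.84, 11.87, 11.08 and 11.16 in Ctrl basal, AMKO basal, Ctrl 5FU and AMKO 5FU, and Ly6a, which encodes Sca-1, had no probe set of its own. The Ctrl 5FU array stood apart: all 13 of 13 neutrophil markers were above the floor there, with a mean of 10.59, against means of 5.06 to 5.27 and 3 to 6 markers above it on the other arrays. Granulocyte-monocyte markers had a mean of 8.98 there against 5.59 to 5.87, and B-lineage markers 7.88 against 5.45 to 5.57. Of the B-lineage markers, Vpreb1 was not higher there, at 5.05, which is under the floor. Erythroid markers had 8.08 against 6.45 to 6.78, though Car2 and Epor were not higher there. T and NK markers had 5.93 against 5.30 to 5.51, with 5 of 8 under the floor there. The highest of them, Nkg7, had 9.87 in Ctrl 5FU and 9.59 in AMKO 5FU. The Ctrl basal array had a mean of 8.13 over 10 skeletal muscle genes, against 5.46 to 5.86 on the others, though Myh1 was under the floor on every array. Each Ctrl value below therefore involves an array with high markers of other cells, and their part in the Ctrl differences was not tested.

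Mitochondrial ribosomal protein genes had higher signals after 5FU in both genotypes, by a median of 0.38 on the log2 scale in Ctrl and 0.675 in AMKO. Over all 14061 genes the medians were 0.01 and 0.03. Of the 70 members, 66 were higher in Ctrl and 67 in AMKO, where 50.1% and 52.3% of all genes were higher. In 63 members both 5FU arrays lay above both basal arrays, so the groups did not overlap, against 32% of all genes. The 7 others were Mrps33, Mrps5, Mrpl37, Mrps2, Mrpl24, Mrps14 and Mrps10. No member was lower in both genotypes. After quantile normalization both 5FU arrays lay above both basal arrays in 55 members, and 60 members were higher in Ctrl and 67 in AMKO.

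The differences were moderate in size. At least 1.5-fold higher were 15 members in Ctrl, against 11.9% of all genes, and 40 in AMKO, against 15.4%. These are 21.4% and 57.1% of the members. After quantile normalization the counts were 11 in Ctrl and 34 in AMKO, and the shares of all genes were not counted there. At least 2-fold higher were 2 members in Ctrl (background 5.02%) and 11 in AMKO (4.69%), so the Ctrl count at this size was not above its background. No member was 1.5-fold lower in Ctrl or AMKO, where 11.9% and 10.5% of all genes were, and none was 2-fold lower (4.46% and 3.55%). In both genotypes at once, 14 members reached 1.5-fold, against 6.59% of all genes. Of the 11094 genes with a mean signal inside the range of the members' means, 12.5% reached 1.5-fold higher in Ctrl and 17.8% in AMKO, which is close to the shares over all genes.

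**Figure D1:**
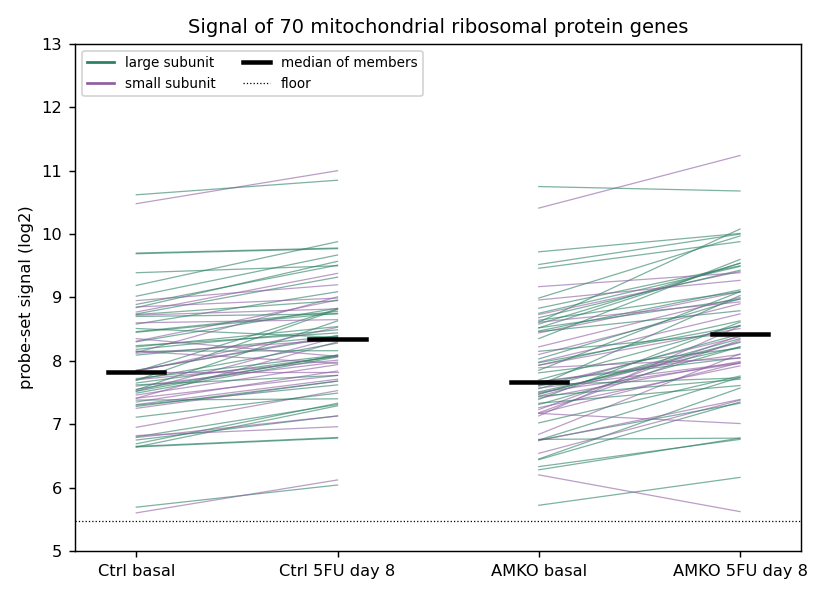
Log2 probe-set signal (vertical axis) of the 70 mitochondrial ribosomal protein genes above the floor on each of the 4 arrays, with a line per gene joining basal to 5FU within a genotype, coloured by subunit, a thick bar at the median of the members and a dotted line at the floor of 5.475. The member median was 7.83 in Ctrl basal, 8.35 in Ctrl 5FU, 7.67 in AMKO basal and 8.43 in AMKO 5FU, and most lines slope upward in both genotypes.

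Mrpl28, a homolog of a bacterial large-subunit protein, had signals of 7.69 and 7.85 in Ctrl and AMKO at basal and 8.81 and 9.09 after 5FU. Mrpl57, a small protein specific to mitochondrial ribosomes and once called Mrp63, had 7.54 and 7.39 at basal and 8.63 and 8.61 after 5FU. These were the members at least 2-fold higher in both genotypes, at 2.17-fold and 2.36-fold for Mrpl28 and 2.13-fold and 2.33-fold for Mrpl57, where 1.96% of all genes were. Mrpl54, a mitochondria-specific large-subunit protein, went from 7.83 to 8.82 in Ctrl and from 7.61 to 9.03 in AMKO, or 1.99-fold and 2.68-fold. For all 3 genes the 5FU arrays lay well above the basal arrays, and the arrays of the same time differed far less.

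Mrpl42, a mitochondria-specific protein, went from 9.02 to 9.67 in Ctrl and from 8.61 to 10.08 in AMKO, the highest difference of a member in AMKO at 1.47. Mrpl16, which lies near the peptidyl transferase centre in its bacterial counterpart, went from 8.30 to 8.83 and from 8.35 to 9.60. Mrpl18, whose bacterial counterpart binds 5S ribosomal RNA, went from 6.64 to 7.29 and from 6.45 to 7.57. In these genes the groups did not overlap, and the AMKO step was the larger: 2.77-fold against 1.57-fold for Mrpl42, 2.38-fold against 1.44-fold for Mrpl16 and 2.17-fold against 1.57-fold for Mrpl18. With 1 array in each group, that difference has no test.

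Among small-subunit genes, Mrps22, a mitochondria-specific protein whose human counterpart is mutated in a respiratory chain deficiency, had 7.52 and 7.13 at basal and 8.37 and 8.55 after 5FU. Mrps28, another small-subunit protein, had 7.41 and 7.18 at basal and 8.30 and 8.33 after 5FU. The log2 difference of Mrps22 was 0.85 in Ctrl against 1.42 in AMKO, and that of Mrps28 0.89 against 1.15. These were the highest small-subunit genes by the mean of both genotypes. Mrps15 was higher by 0.88 in Ctrl but 0.65 in AMKO, 1 of 10 members whose Ctrl difference was the larger.

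The bases upstream of some of the highest members are shown with the motifs found there. Motifs that factors of nuclear-encoded mitochondrial genes are known to bind were searched on both strands in the 250 bases before the annotated start, 1 start for a gene, from RefSeq on build GRCm38.p6, for the 62 of 71 members in the table. They were a motif of NRF1, CCGGAAG for ETS factors such as GABP, and AANATGGC for YY1. The NRF1 motif left a middle position free, so a match need not be a palindrome, and those of Mrpl57 and Mrps21 below are not. None of the 3 motifs contains another, and matches that overlap were counted under each. Of the 62 windows, 8 held the NRF1 letters, 15 the ETS letters and 7 the YY1 letters, or 12.9%, 24.2% and 11.3%. Over 17491 protein-coding genes the shares were 5.3%, 9.1% and 3.7%, and over 10992 genes above the floor 7.7%, 12.6% and 4.3%.

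The 6 members with the highest mean 5FU difference among those that hold a match are given over 120 bases, 5′ to 3′ toward the start, with the matches in capitals, on either strand.
Mrpl57: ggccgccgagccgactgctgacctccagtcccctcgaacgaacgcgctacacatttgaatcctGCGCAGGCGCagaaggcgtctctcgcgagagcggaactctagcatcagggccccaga
Mrps22: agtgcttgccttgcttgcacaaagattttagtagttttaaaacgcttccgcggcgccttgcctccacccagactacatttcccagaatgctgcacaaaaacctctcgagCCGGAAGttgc
Mrpl18: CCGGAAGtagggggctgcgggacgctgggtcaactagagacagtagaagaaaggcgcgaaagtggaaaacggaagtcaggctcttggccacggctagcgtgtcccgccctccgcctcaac
Mrpl3: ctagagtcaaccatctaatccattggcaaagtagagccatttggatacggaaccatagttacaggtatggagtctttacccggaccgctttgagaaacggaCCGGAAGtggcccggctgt
Mrps21: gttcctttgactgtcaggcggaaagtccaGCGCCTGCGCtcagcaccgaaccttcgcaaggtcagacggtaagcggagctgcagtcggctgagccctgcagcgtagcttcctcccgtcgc
Mrpl47: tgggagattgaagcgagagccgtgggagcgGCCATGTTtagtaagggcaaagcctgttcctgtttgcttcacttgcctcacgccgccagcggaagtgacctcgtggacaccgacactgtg

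The Mrpl57 stretch lies at chr14:57826119-57826238 on the plus strand, 120 to 1 bases before the annotated start. The Mrps22 stretch lies at chr9:98601680-98601799 on the minus strand, 120 to 1 bases before the annotated start. The Mrpl18 stretch lies at chr17:12916212-12916331 on the minus strand, 240 to 121 bases before the annotated start. The Mrpl3 stretch lies at chr9:105053148-105053267 on the plus strand, 120 to 1 bases before the annotated start. The Mrps21 stretch lies at chr3:95871515-95871634 on the minus strand, 120 to 1 bases before the annotated start. The Mrpl47 stretch lies at chr3:32736756-32736875 on the minus strand, 120 to 1 bases before the annotated start. In Mrpl47 a further YY1 match lies outside the printed stretch. Mrpl57 and Mrps21 hold NRF1 letters, Mrps22, Mrpl18 and Mrpl3 hold ETS letters, and Mrpl47 holds YY1 letters. No motif is common to all 6. Ranked above Mrpl47 without any of the 3 motifs in this window were Mrpl28, Mrpl42, Mrpl16, Mrps23, Mrpl2, Mrps15, Mrps9 and Mrpl20. Mrpl54, Mrps28, Mrpl13, Mrpl15 and Mrps35, also ranked above it, had no entry in the table. The match is a description of these windows and not a measured site. Any of the 3 motifs stood in 27 of 62 windows, and the median of the mean 5FU difference was 0.53 in these members and 0.448 in the 34 others above the floor. The NRF1 letters stood in 7 of 37 large-subunit windows (18.9%) and 1 of 25 small-subunit windows (4.0%).

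**Figure D2:**
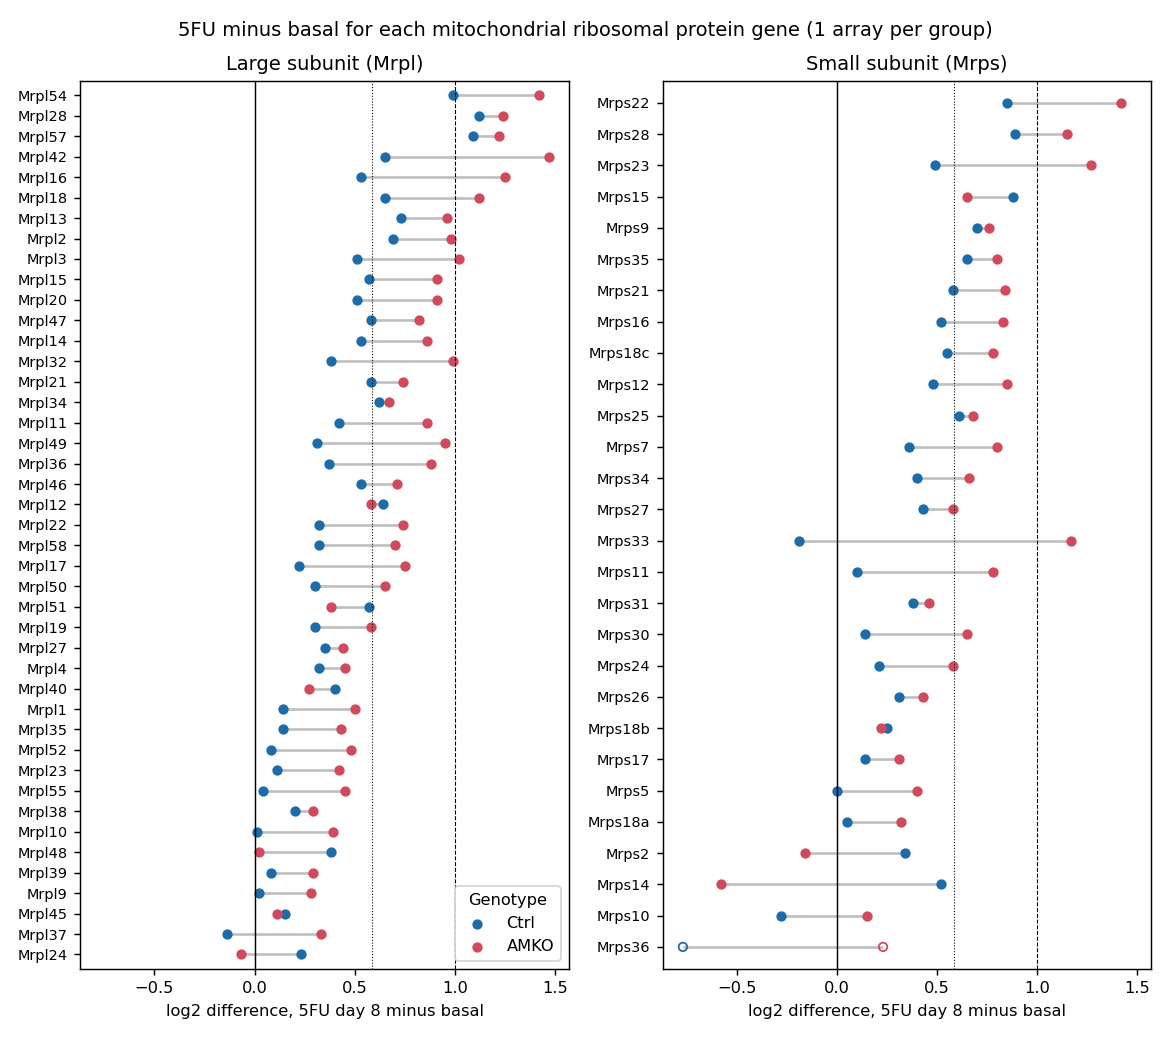
Log2 difference of 5FU day 8 minus basal (horizontal axis) for every large-subunit gene (left) and small-subunit gene (right), with 1 point for Ctrl and 1 for AMKO joined by a grey line, sorted by the mean of both. The dotted and dashed lines mark 1.5-fold and 2-fold, open points are Mrps36, which is under the floor, and the AMKO point lies to the right of the Ctrl point in 60 of the 70 genes above the floor.

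Large-subunit and small-subunit genes had like differences. In Ctrl the medians were 0.38 for the 43 large-subunit genes and 0.40 for the 27 small-subunit genes above the floor, and in AMKO 0.70 and 0.66. At least 1.5-fold higher were 9 large and 6 small-subunit genes in Ctrl (background 11.9%), and 24 and 16 in AMKO (15.4%). Both 5FU arrays lay above both basal arrays in 41 of 43 large-subunit and 22 of 27 small-subunit genes (32% of all genes). Of the 7 exceptions, 5 were small-subunit genes.

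The names do not follow the structures throughout, since Mrps18a and Mrps30 are placed in the large subunit there. With both moved, the large and small medians were 0.37 and 0.43 for Ctrl, and 0.67 and 0.68 for AMKO. The large minus small difference in AMKO, 0.04 by name, was -0.01 by structure and -0.012 after quantile normalization, so its sign depends on these choices. In Ctrl it was -0.02 by name and -0.06 by structure, and 0 with the floor at the 75th percentile. Members are not replicates, and the difference between subunits has no test here.

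The members were also grouped by descent, a difference that has no test here. The 43 homologs of bacterial ribosomal proteins had a Ctrl median of 0.38 and an AMKO median of 0.74. The 27 proteins specific to mitochondrial ribosomes had 0.38 and 0.65, and for the mean of both genotypes the medians were 0.61 and 0.49. All 27 specific proteins were higher in AMKO, where 52.3% of all genes were. Across the 70 members the Ctrl and AMKO differences, which share no array, correlated with r = 0.554 (Pearson) and rho = 0.613 (Spearman). Over all genes above the floor the Pearson's r was 0.566. These points share the 4 arrays, and genes are not independent replicates. The correlation of mean signal with mean 5FU difference across members was 0.073.

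**Figure D3:**
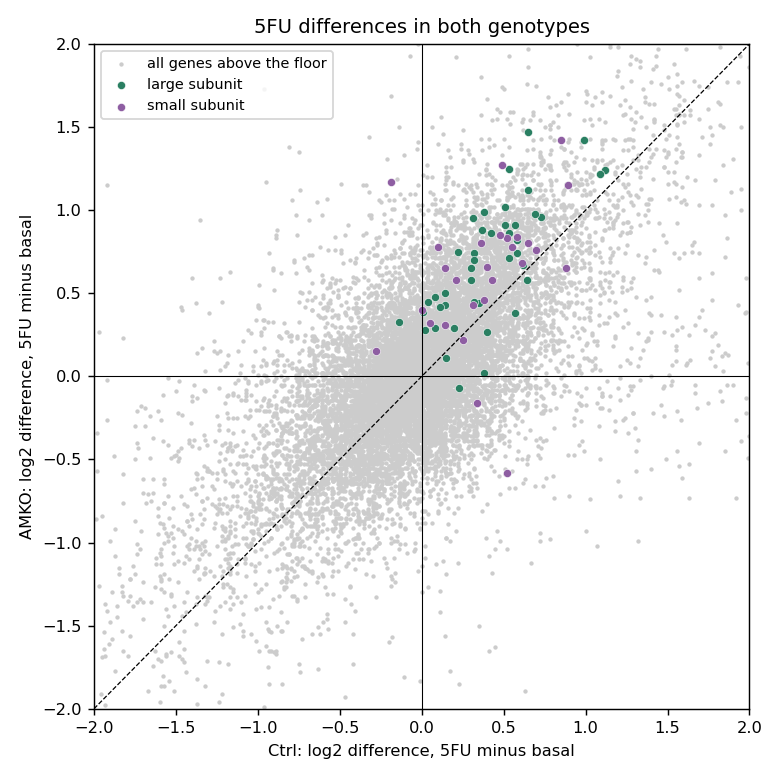
Log2 difference of 5FU minus basal in Ctrl (horizontal axis) against AMKO (vertical axis) for large-subunit genes, small-subunit genes and all 14061 genes above the floor in grey, with the dashed line at equal differences. The axes stop at 2, which leaves 319 genes outside, and most members lie at the upper right and above the dashed line.

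Some members were described for their known function. Mrpl12, the stalk protein that also binds the mitochondrial RNA polymerase, had 6.69 and 6.75 at basal and 7.33 on both 5FU arrays. Mrps12, of the decoding centre, had 7.46 and 7.44 at basal and 7.94 and 8.29 after 5FU. Mrps16, mutated in a human disorder of mitochondrial translation, had 10.48 and 10.41 at basal and 11.00 and 11.24 after 5FU. In each of these genes both genotypes were higher after 5FU and the groups did not overlap. Mrpl12 was also the only member at least 1.5-fold higher in Ctrl and not in AMKO, where its difference was 0.58, just under the 1.5-fold line. A further probe set of Mrpl12, with signals near the floor, gave 0.74 in Ctrl and 0.06 in AMKO, so the AMKO size depends on the probe set.

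Mrps34, a small-subunit protein linked to Leigh syndrome in humans, had Ctrl and AMKO differences of 0.40 and 0.66. Mrpl36, a very small protein with a bacterial homolog, was higher by 0.37 and 0.88. Mrpl40, a mitochondria-specific protein encoded in the human region deleted in velocardiofacial syndrome, was higher by 0.40 and 0.27. Mrps30, once described as a cell death protein and placed in the large subunit by structures, was higher by 0.14 and 0.65. Mrpl58, a release factor relative built into the large subunit, was higher by 0.32 and 0.70. In all 5 genes the groups did not overlap.

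The Mrps18 genes encode 3 paralogs that occupy different places on the ribosome, and their differences were not alike. Mrps18c had 7.85 and 7.60 at basal and 8.40 and 8.38 after 5FU, or 1.46-fold and 1.72-fold. Mrps18b had 8.95 and 9.17 at basal and 9.20 and 9.39 after 5FU, or 1.19-fold and 1.16-fold. Mrps18a had 8.60 and 8.61 at basal and 8.65 and 8.93 after 5FU, or 1.04-fold and 1.25-fold. Mrps18c was thus the highest of the 3 in both genotypes. A further probe set of Mrps18c gave 0.60 and 0.52, and a further one of Mrps18b gave 0.21 in Ctrl and -0.23 in AMKO, so the AMKO direction of Mrps18b depends on the probe set.

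At the lower end stood Mrps10, Mrps14, Mrpl24, Mrps2, Mrpl37, Mrpl45, Mrpl9 and Mrps18a. Mrps14, a homolog of a bacterial small-subunit protein, had 5.60 and 6.20 at basal and 6.12 and 5.62 after 5FU, so Ctrl was higher by 0.52 and AMKO lower by 0.58 (-0.58). These signals lie near the floor. Mrps10 had 8.35 and 7.89 at basal and 8.07 and 8.04 after 5FU, a difference of -0.28 in Ctrl and 0.15 in AMKO. Mrpl24, whose bacterial counterpart lies at the exit of the peptide tunnel, had 10.62 and 10.75 at basal and 10.85 and 10.68 after 5FU. Its AMKO difference of -0.07 became 0.04 when arrays were centred on their medians, and its groups overlapped.

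Mrps2 differed by 0.34 in Ctrl and -0.16 in AMKO, and Mrpl37 by -0.14 and 0.33. Mrpl45, which is related to the yeast protein that ties the ribosome to the inner membrane, was higher by 0.15 and 0.11, and Mrpl9 by 0.02 and 0.28. Mrps33 differed most between the genotypes, with 8.15 in Ctrl basal, 7.23 in AMKO basal, 7.96 in Ctrl 5FU and 8.40 in AMKO 5FU. The low value was the AMKO basal one, and the 3 other arrays lay within a narrower range. Mrpl1 was higher by 0.14 and 0.50, Mrpl27 by 0.35 and 0.44, and Mrpl39 by 0.08 and 0.29, which became -0.042 in Ctrl after quantile normalization.

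The 5FU effect averaged over both genotypes was fitted with limma across all 14061 genes, with genotype and treatment as additive terms, so that the difference between the genotypes' responses serves as error. Over the members the median effect was 0.52. Among members named above it was 1.205 with a standard error of 0.170 for Mrpl54, 1.18 with 0.13 for Mrpl28 and 1.16 with 0.134 for Mrpl57. It was 1.135 with 0.199 for Mrps22, 1.06 with 0.244 for Mrpl42 and 1.02 with 0.149 for Mrps28. None of the 70 members passed an adjusted p of 0.05 in this limma fit, and none of all genes did (0% called), with member values from 0.0708 to 0.965. At an unadjusted p under 0.05 there were 42 members, against 27.8% of all genes. Robust variance estimation called 14 of 70 members (9.35% of all genes), quantile normalization 5 (6.74%) and a floor at the 75th percentile 18 of 64 (15.7%), so the calls depend on the variance model, scaling and floor.

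Leaving out the Ctrl 5FU array, where markers of other blood cells were high, gave a member median of 0.638 for 5FU against both basal arrays. Leaving out the Ctrl basal array, with its muscle genes, gave 0.625. Each of these fits keeps the other Ctrl array, while the AMKO difference, with its median of 0.675, uses neither. The member median was 0.492 without the AMKO basal array and 0.445 without the AMKO 5FU array. All fits with an array left out hold treatment alone, without genotype. Their values therefore mix a difference between the genotypes with the 5FU difference. Proliferation markers were also higher, with 9 of 10 measured and all above the floor on every array: their mean was 8.73 on both basal arrays, 10.08 in Ctrl 5FU and 10.03 in AMKO 5FU. Of the 8 measured sort and stem cell markers, 3 were higher and 5 lower in each genotype. Cd48, which marks progenitors more than stem cells, went from 4.99 to 9.96 in Ctrl and from 5.15 to 9.49 in AMKO. Flt3 was higher by 1.57 and 0.52 and Cd34 by 1.03 and 0.64. The stem cell markers Procr (-1.64 and -0.70), Hlf (-0.59 and -0.29), Slamf1 (-0.48 and -0.36) and Mecom (-0.49 and -0.04) were lower, as was Kit (-0.76 and -0.71). The part of a changed cell mix or of cycling in the members' differences was not tested.

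Genes of the same pathway outside the ribosome itself had smaller medians, a difference that was not tested. Over 22 assembly factors of the mitochondrial ribosome the medians were 0.005 in Ctrl and 0.30 in AMKO, with 2 and 5 genes at least 1.5-fold higher (11.9% and 15.4% of all genes) and 0 and 1 lower. Gtpbp10, a GTPase of large-subunit assembly, was higher by 1.18 and 0.45, and Fastkd2, an RNA-binding protein, by 0.61 and 0.69. Nsun4, a methyltransferase of the small-subunit RNA, differed by -0.19 and -1.0, and Eral1, the chaperone of that RNA, by -0.28 and -0.36.

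Of 14 translation factors, 13 passed the floor, with medians of 0.13 and 0.32, 1 and 6 of them at least 1.5-fold higher and none lower by that much. Gfm1, the elongation factor that moves the ribosome along, was higher by 0.87 and 1.26, and Tsfm, the exchange factor of Tufm, by 0.37 and 0.99. Mtfmt, which formylates the initiator tRNA, differed by -0.54 and -0.37, and Guf1 by -0.44 and -0.34. The 16 mitochondrial tRNA synthetases above the floor had medians of 0.16 and 0.305, with 0 and 6 at least 1.5-fold higher and 0 and 1 lower. Yars2 (0.47 and 0.92) and Sars2 (0.54 and 0.60) were the highest by the mean of both genotypes, and Wars2 (-0.44 and -0.60) and Vars2 (-0.30 and -0.27) the lowest.

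Genes of mitochondrial transcription and RNA processing, 16 of 18 above the floor, had medians of 0.16 and 0.27, with 1 gene at least 1.5-fold higher in each genotype and 0 and 1 lower. Tfam, which packages mitochondrial DNA, was higher by 0.18 and 1.07, and Lrpprc, which stabilizes mitochondrial messages, by 0.65 and 0.17. Fastk differed by -0.55 and -0.59, and Mtpap, the poly(A) polymerase, by -0.14 and -0.34.

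The 12 regulators of nuclear-encoded mitochondrial genes had medians of 0.07 and 0.075, none at least 1.5-fold higher, and 1 and 2 lower. Gabpa and Gabpb1, subunits of GABP, were higher by 0.37 and 0.57 and by 0.31 and 0.46, and Gabpb2 by 0.16 and 0.07. Nrf1 was higher by 0.15 and 0.39, and Yy1 differed by -0.01 and 0.41. Mycn differed by -0.69 in each genotype and the coactivator Ppargc1a by -0.33 and -1.04, the AMKO 5FU value of 5.03 being under the floor. Of 5 ribosomal proteins with other names, 3 had a probe set of their own, and all 3 were higher in both genotypes. They were Gadd45gip1 (0.53 and 0.70), Ptcd3 (0.39 and 0.69), which guides messages into the small subunit, and Dap3 (0.17 and 0.38).

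Oxidative phosphorylation complexes combine subunits from the mitochondrial genome with others encoded in the nucleus. Their nuclear subunits had values like those of the members, and over 72 genes the medians were 0.45 in Ctrl and 0.685 in AMKO, with 69 higher in each. For 53 cytosolic ribosomal protein genes the medians were 0.04 and 0.32, with 30 and 48 higher. Both sets were defined by symbol and the differences between sets were not tested.

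**Figure D4:**
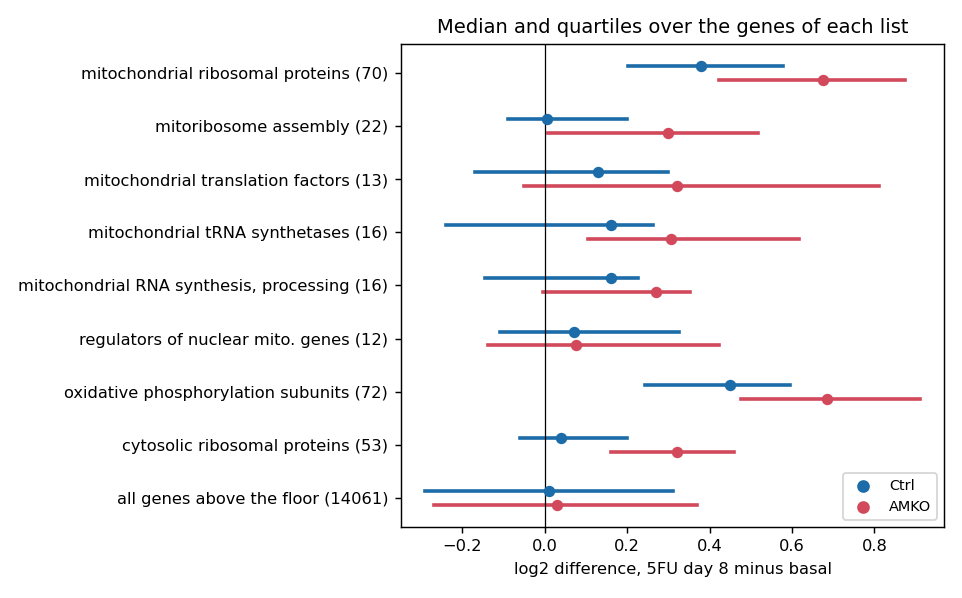
Median (point) and quartiles (line) of the log2 difference of 5FU minus basal (horizontal axis) over the genes of each list above the floor, in Ctrl and AMKO, with the number of genes in brackets. Mitochondrial ribosomal proteins (0.38 and 0.675) and oxidative phosphorylation subunits (0.45 and 0.685) have the highest medians shown, and the median over all genes is 0.01 and 0.03.

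AMKO and Ctrl were also compared at each time. At basal the members had slightly lower signals in AMKO, with a median of -0.085 against 0.00 over all genes, and 21 of 70 were higher, against 49.4% of all genes. The count of higher members was 11 with arrays centred on their medians and 26 after quantile normalization, and the median was negative in both (-0.165 and -0.048). After 5FU the members had a median of 0.175 in AMKO against 0.06 over all genes, and 52 of 70 were higher, against 59% of all genes. At least 1.5-fold apart were Mrps33, lower by 0.92 (-0.92), and Mrps14, higher by 0.60, at basal, and Mrpl16, higher by 0.77, after 5FU. The backgrounds were 3.63% lower and 2.51% higher at basal and 4.15% higher after 5FU, all above the members' shares. No member was 2-fold apart, where 0.228% of all genes were higher and 0.697% lower at basal, and 0.74% higher and 2.63% lower after 5FU. The lowest signals in AMKO at basal after Mrps33 were those of Mrps23 (-0.51), Mrps11 (-0.50) and Mrps10 (-0.46), and the highest after Mrps14 were Mrps2 (0.38), Mrps15 (0.31) and Mrps18b (0.22).

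After 5FU, Mrpl49 (0.49), Mrpl17 (0.48) and Mrpl3 (0.45) followed Mrpl16, and Mrps14 (-0.50), Mrpl48 (-0.35), Mrpl24 (-0.17) and Mrps21 (-0.15) were the lowest. Of the 70 members, 37 were lower in AMKO at basal and higher in AMKO after 5FU, 15 were higher at both times, 10 lower at both, 5 went from higher to lower and 3 had no difference at 1 time or both. The shares of all genes in these patterns were not counted. With each time taken singly, 49.4% of all genes were higher in AMKO at basal and 59% after 5FU. The basal and 5FU comparisons share no array. In the limma fit none of the 70 members passed for the averaged AMKO effect (0% of all genes called, smallest member adjusted p 0.906), with 0 members at an unadjusted p under 0.05, against 3.17% of all genes.

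**Figure D5:**
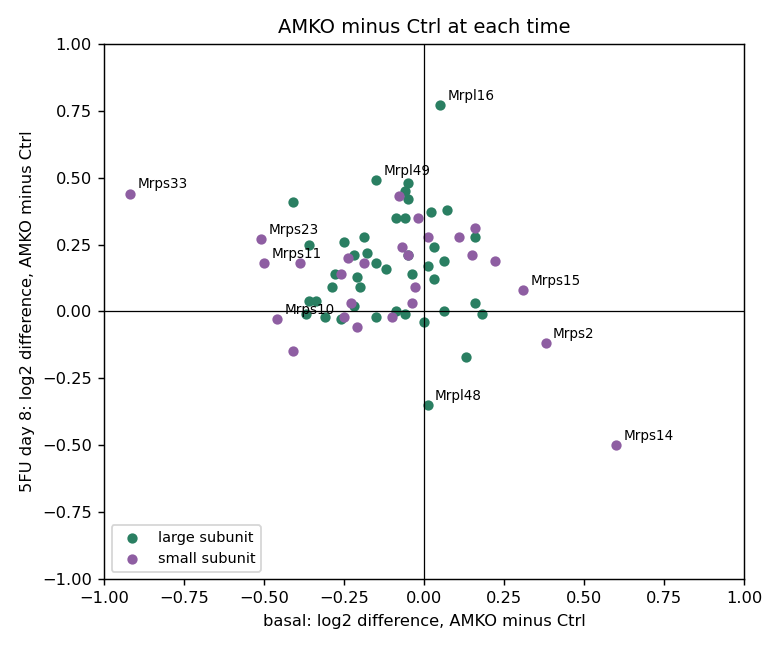
Log2 difference of AMKO minus Ctrl at basal (horizontal axis) against that at 5FU day 8 (vertical axis) for the 70 members above the floor, coloured by subunit. Most points lie at the upper left (37 members), with Mrps33 far to the left, Mrpl16 at the top and Mrps14 at the lower right. The share of all genes at the upper left was not counted.

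The 5FU difference was larger in AMKO than in Ctrl for 60 of 70 members, where 55.2% of all genes had a larger one, and the median of this difference of differences was 0.285 against 0.05. The count was 57 after quantile normalization and 63 with centred arrays. By subunit it was 37 of 43 large-subunit and 23 of 27 small-subunit genes. At least 1.5-fold larger were 7 members, or 10%, which is close to the 9.93% of all genes, so this count shows no excess. The highest were Mrps33 (1.36), Mrpl42 (0.82), Mrps23 (0.78) and Mrpl16 (0.72), and 1 member was lower by that much, Mrps14 (-1.10), against 7.6%. Of these, Mrps33 and Mrps14 passed 2-fold, against 2.57% and 2.94%. Mrps2 (-0.50), Mrpl48 (-0.36) and Mrpl24 (-0.30) followed Mrps14 at the lower end. The same direction held for 60 of 72 oxidative phosphorylation subunits and 43 of 53 cytosolic ribosomal proteins, with medians of 0.24 and 0.25. Both Ctrl arrays enter this value, the 5FU one with high markers of neutrophils and other blood cells and the basal one with high muscle genes. Their part in it was not tested.

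Further probe sets of 1 gene existed for 9 members. In AMKO that of Mrpl47 gave 1.31 against 0.82 for the one used, and that of Mrps16 gave 1.58 against 0.83, while in Ctrl they gave 0.20 against 0.58 and 0.53 against 0.52. A further probe set of Mrpl10 gave -0.48 in Ctrl and -0.16 in AMKO, against 0.01 and 0.39, so the direction for Mrpl10 in AMKO depends on the probe set. With probe sets averaged for each gene the member medians were 0.38 and 0.655.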

How the data were processed

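The authors' deposited table holds log2 values, 1 for each probe set and Affymetrix array; how they were made (background correction, summarisation, scaling) is stated by no source used here. The log2 scale was read from their range of 1.99 to 13.43. Array medians were 5.43 to 5.55. Of 34472 probe sets, 23521 name 1 gene, with symbols updated through a RefSeq table of GRCm38.p6. Genes with several were read from the probe set with the highest mean.

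Differences of 1 array against 1 array have no test and are counted at 1.5-fold and 2-fold. Averaged effects come from limma 3.58.1 under R 4.3.3 (additive terms, intensity trend, 1 residual degree of freedom, prior of 2.62), with two-sided p-values adjusted after Benjamini and Hochberg over all genes. The number of arrays limits the precision. The members and gene lists were chosen with earlier results of these data known, and the descent groups and the symbol sets after their values were seen. Named members were the 8 highest and 8 lowest by mean 5FU difference, the 4 highest and lowest by AMKO minus Ctrl at each time and by the difference of differences, the 3 highest and lowest by signal, 14 genes fixed for their role, of which Mrpl33 and Mrpl41 had no probe set of their own, and in the other lists the 2 highest and lowest. Mrps5, Mrpl10, Mrpl58, Nrf1, Gabpb2 and Yy1 were named outside this rule, after their values were seen. Protein sequences were not used here.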

Additional observations from a re-analysis of the deposited data

Results flagged for a closer look

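The 5FU differences of 6 of the 70 members above the floor, and of Mrps36 under it, had opposite signs in Ctrl and AMKO. The share of all genes with opposite signs was not counted. Higher in both genotypes were 63 of the 70 members, against 37% of all genes. Whether the genotypes differ could not be tested without replicates. Subtracting the Ctrl value from the AMKO one gave 1.36 for Mrps33, 0.47 for Mrpl37, -0.50 for Mrps2, -0.30 for Mrpl24, -1.10 for Mrps14, 0.43 for Mrps10 and 1.0 for Mrps36, which lies under the floor on all arrays. For the members as a whole, AMKO minus Ctrl had a negative median at basal and a positive one after 5FU, with a median difference of 0.285 for single members. Among the other members named for AMKO minus Ctrl or for the difference of differences, opposite signs at basal and after 5FU, also not tested, were seen for Mrpl42 (0.82), Mrps23 (0.78), Mrps11 (0.68), Mrpl49 (0.64), Mrpl17 (0.53), Mrpl3 (0.51) and Mrpl48 (-0.36).

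Probe sets shared by several genes entered no comparison above. Of 13 that include a mitochondrial ribosomal protein gene, 3 were at least 1.5-fold higher after 5FU in both genotypes, where 6.59% of all genes were. The mean log2 difference of both genotypes was 1.470 for the probe set of Actl6a and Mrpl47, 0.655 for that of Mrpl41 and Dph7, and 0.640 for that of Mrpl43 and Twnk. These signals cannot be assigned to 1 gene.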

How the results depend on the processing

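Alternatives were quantile normalization, arrays centred on their medians, dropping the floor, raising it to 7.32 (75th percentile), averaging the probe sets of a gene, subunits by structure, and limma with robust estimation or no trend. The counts of non-overlapping members and of larger AMKO differences, the median difference of differences, and medians without members with further probe sets were added after the data were examined. A median was taken as unmoved within 0.1 and a count within 1.5 times. Centring moved the AMKO 5FU median from 0.675 to 0.785 and the count of members 2-fold higher in AMKO from 11 to 17. It moved the median of all genes from 0.03 to 0.15, so the members lay 0.645 above it before and 0.635 after. Members called for the averaged 5FU effect were 0 of 70 (0% of all genes), and also 0 of 70 with centred arrays (1.15%). They were 5 of 70 after quantile normalization (6.74%), 18 of 64 with the higher floor (15.7%) and 14 of 70 with robust estimation (9.35%). Leaving out each array in turn, with a fit of treatment alone, gave member medians of 0.445 to 0.638. Of the values over the members, 84 kept within these limits and 7 moved. Of those of single members, 124 kept and 56 moved. Reversal was counted only for differences of at least 1.5-fold, and none of these changed sign. Smaller ones did change sign, such as Mrpl24 in AMKO (-0.07 to 0.04 with centred arrays). Another was Mrpl39 in Ctrl (0.08 to -0.042 after quantile normalization). The cause of each move was not tested, apart from the centring itself. No paired analysis was possible because the labels carry no replicate numbers. With 1 array in each group, no difference between groups can be set against a replicate error.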

Other observations

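Probe sets shared with other genes gave the values nearest to a measurement for genes without their own. In Ctrl and AMKO the log2 differences of 5FU minus basal were 0.23 and -0.03 for Mrpl30 with Gm6238, 0.55 and 0.75 for Mrpl33 with Gm38424, 0.19 and 0.34 for Mrpl33 with Babam2, 0.38 and 0.71 for Mrpl44 with Wdfy1, and 0.33 and 0.40 for Mrps6 with Slc5a3. Those of Mrpl53 and Ccdc142, a gene pair with 2 shared probe sets, were 0.15 and 0.46 for the one and -0.43 and -1.06 for the other. Lower signals in both genotypes were also seen for Mrps34 with Nme3 (-0.26 and -0.24) and Mrpl19 with Gcfc2 (-0.27 and -0.14), while Mrps27 with 6430562O15Rik gave 0.04 and -0.34. Signal from either gene cannot be told apart in these probe sets.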
